A study of Mus musculus with 9 samples.

Results

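The genes described here are 10 plasma proteins of the acute-phase response in mouse liver mesenchymal cells, namely the serum amyloid A genes Saa1, Saa2, Saa3 and Saa4, Lcn2, Orm1, Orm2, Hp, Hpx and Apcs. They were chosen by gene symbol, and all 10 were found among the 24453 genes of the deposited table and passed the filter on low counts. RNA sequencing covered 3 groups of 3 libraries, each library being made from cells pooled from 3 to 5 C57BL/6J mice. Steady-state hepatic stellate cells (HSCs), the vitamin A-storing pericytes of the liver, were separated by density gradient, without sorting, from normal livers of untreated wild-type mice. CCl4-fib were sorted as CD45- GFP+ cells from Col1a2-GFP Tg mice that had been given carbon tetrachloride (CCl4), a hepatotoxin, 2 times per week for 8 weeks. NASH-fib were sorted by the same gate from MC/COL mice, in which the melanocortin 4 receptor was absent (MC4R-KO) and the Col1a2-GFP transgene was carried. These mice were males that received Western diet from 8 weeks of age for 20 weeks, a model of non-alcoholic steatohepatitis (NASH). GFP was driven by the Col1a2 promoter, so the sorted cells were those that used this collagen promoter. The ages of the other mice are not given in the sources used here. HSCs differed from both fibroblast groups in the way the cells were isolated as well as in the state of the liver, and these cannot be told apart.

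Acute-phase proteins are plasma proteins whose level changes within hours of infection or injury. Hepatocytes are their main source, and interleukin-6 and interleukin-1 induce them there through STAT3, NF-kappaB and the C/EBP factors. Serum amyloid A is the most inducible class. Saa1 and Saa2 are the hepatic forms carried on high-density lipoprotein, Saa3 is made mainly outside hepatocytes, for example in macrophages, adipocytes and epithelia, and Saa4 is the constitutive form. Lcn2 encodes lipocalin 2, which binds bacterial siderophores, and Orm1 and Orm2 encode orosomucoids, lipocalins that bind drugs and lipids. Hp encodes haptoglobin, which binds free hemoglobin, Hpx encodes hemopexin, which binds free heme, and Apcs encodes serum amyloid P, a pentraxin and an acute-phase protein of the mouse.

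The 4 serum amyloid A genes lie together on chromosome 7 of mm10. Saa3 (NM_011315, 46711998 to 46715676, - strand) is followed by Saa4 (NM_011316, 46727999 to 46732543, - strand), Saa1 (NM_009117, 46740499 to 46742980, - strand) and Saa2 (NM_011314, 46751833 to 46754314, + strand). Lcn2 (NM_008491) lies on chromosome 2 from 32384637 to 32387739. Orm1 (NM_008768, 63344556 to 63348163) and Orm2 (NM_011016, 63362449 to 63365877) are neighbours on chromosome 4. Hp (NM_017370) lies on chromosome 8 from 109575128 to 109579172, Hpx (NM_017371) on chromosome 7 from 105591611 to 105600116 and Apcs (NM_011318) on chromosome 1 from 172893961 to 172895054. No member overlaps another gene in the GENCODE M21 annotation, and reads on the exons of each RefSeq gene were counted. The first 120 coding bases of the 4 serum amyloid A genes, from the GENCODE transcripts, are shown because the results separate Saa3 and Saa4 from Saa1 and Saa2. Capitals mark the bases that differ from Saa1, or face a gap in it, after alignment.
Saa1: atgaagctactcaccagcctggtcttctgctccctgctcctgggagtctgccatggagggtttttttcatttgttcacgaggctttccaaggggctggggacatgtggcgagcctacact
Saa2: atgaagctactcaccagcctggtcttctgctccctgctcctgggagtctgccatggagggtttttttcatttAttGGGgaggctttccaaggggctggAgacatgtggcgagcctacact
Saa3: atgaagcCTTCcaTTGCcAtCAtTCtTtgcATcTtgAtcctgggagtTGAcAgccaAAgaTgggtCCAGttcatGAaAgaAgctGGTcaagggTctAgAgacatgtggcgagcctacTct
Saa4: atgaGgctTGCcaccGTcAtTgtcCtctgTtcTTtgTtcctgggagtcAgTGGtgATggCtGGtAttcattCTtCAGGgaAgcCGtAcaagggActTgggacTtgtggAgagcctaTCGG

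In the alignment of these stretches Saa2 differed from Saa1 at 5 columns, Saa3 at 44 and Saa4 at 41, with gaps counted as differences. Gaps in Saa3 are not printed, so its stretch shows fewer capitals than 44. Over the whole coding sequence Saa1 and Saa2 were identical at 95.1% of the aligned bases, Saa1 and Saa3 at 74.3% and Saa1 and Saa4 at 64.4%. Of all windows of 50 bases in the Saa1 transcript, 13.2% also occur in Saa2, 1.61% in Saa3 and none in Saa4. Orm1 and Orm2 were identical at 89.9% of the coding bases and shared 20.4% of such windows. How reads that fit several genes were counted is not given in the sources used here, so the split between Saa1 and Saa2 and between Orm1 and Orm2 is uncertain, whereas few reads of Saa3 can be shared.

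The 250 bases before the start site were taken from the RefSeq promoter table of GRCm38.p6, the build of mm10, for the 8 members that it lists, which leaves out Hp and Orm1. Those of Saa1, Saa2, Saa3 and Lcn2 are shown because the results turn on these genes, and the capitals mark a match to TTGCNNAA, the core of the C/EBP motif, on either strand.
Saa1, chr7:46742981-46743230, - strand: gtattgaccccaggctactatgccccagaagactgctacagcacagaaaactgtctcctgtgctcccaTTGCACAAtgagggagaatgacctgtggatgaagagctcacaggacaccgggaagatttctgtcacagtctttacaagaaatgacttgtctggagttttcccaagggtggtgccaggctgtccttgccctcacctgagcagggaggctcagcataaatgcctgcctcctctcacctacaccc
Saa2, chr7:46751583-46751832, + strand: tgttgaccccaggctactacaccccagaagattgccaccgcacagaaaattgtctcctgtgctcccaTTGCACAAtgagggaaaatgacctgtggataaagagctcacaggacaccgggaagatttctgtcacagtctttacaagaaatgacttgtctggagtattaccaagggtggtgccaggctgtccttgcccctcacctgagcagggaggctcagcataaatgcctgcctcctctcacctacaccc
Saa3, chr7:46715677-46715926, - strand: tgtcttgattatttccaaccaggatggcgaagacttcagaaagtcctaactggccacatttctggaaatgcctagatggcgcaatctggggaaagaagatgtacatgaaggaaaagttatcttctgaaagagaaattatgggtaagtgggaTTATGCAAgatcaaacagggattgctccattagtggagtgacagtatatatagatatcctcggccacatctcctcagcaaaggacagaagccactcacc
Lcn2, chr2:32387740-32387989, - strand: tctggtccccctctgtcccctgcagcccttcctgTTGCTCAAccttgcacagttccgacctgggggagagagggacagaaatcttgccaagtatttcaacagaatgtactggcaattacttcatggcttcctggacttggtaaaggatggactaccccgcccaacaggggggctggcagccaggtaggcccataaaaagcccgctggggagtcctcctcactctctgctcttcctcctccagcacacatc

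The promoters of Saa1 and Saa2 were identical at 94.8% of the aligned bases and those of Saa1 and Saa3 at 48.2%. TTGCNNAA occurred in 7 of the 8 member promoters, all but that of Apcs, and in 9.564% of the 32851 promoters of the same length in the table. The match began 182 bases before the start site in Saa1, 183 in Saa2, 99 in Saa3 and 216 in Lcn2. Of the other motifs searched on both strands, TTCNNNGAA for STAT factors occurred in 1 member promoter, that of Apcs, and in 7.02% of all promoters. TATAAA occurred in 1, that of Orm2, and in 12.37%, and the NF-kappaB motif in none, against 4.648%. These are matches of letters, and the promoters of Saa1 and Saa2 are near copies, so their matches are not separate observations. The motifs were also chosen after these promoters had been seen, so setting the members against all promoters is no test of enrichment.

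Libraries held between 3071070 and 5634273 reads on genes. The deposited values were scaled by the authors to the same total in every library, and all levels below are in that unit. The labelled cell types were checked against markers. The summed value of 10 quiescent stellate markers, led by Rgs5, Lrat and Reln, was between 56558 and 62914 in HSCs, between 8461 and 21373 in CCl4-fib and between 19230 and 32296 in NASH-fib. That of 10 activated fibroblast markers, led by Col3a1, Col1a2 and Col1a1, ran from 7255 to 12849, from 51929 to 58824 and from 29573 to 33620 in the same order. Most of the quiescent stellate sum in NASH-fib was Rgs5 (15987 to 29830, against 14708 to 27511 in HSCs). Lrat (189 to 458 against 7070 to 14894) and Reln (200 to 377 against 7670 to 11068) were far lower in NASH-fib than in HSCs. Markers of other cell types were also read. The 18 hepatocyte markers, led by Alb, Cyp2e1 and Gc, were detected in every group and summed to between 29835 and 67556 in HSCs, between 3488 and 5925 in CCl4-fib and between 10697 and 43493 in NASH-fib, none of them being at 0 throughout a group. Endothelial markers (led by Clec4g, Fcgr2b and Kdr) had sums of 8507 to 16959 in HSCs, 292 to 375 in CCl4-fib and 1372 to 4328 in NASH-fib, and macrophage markers (led by Lyz2, Clec4f and Vsig4) had sums of 5402 to 18636, 482 to 956 and 3062 to 6711 in the same order. Mesothelial markers (9 of 10 in the file, led by Gpm6a, Msln and Upk1b) went the other way, with sums of 751 to 1239 in HSCs, 17316 to 23475 in CCl4-fib and 28116 to 34748 in NASH-fib, as did cholangiocyte markers (led by Krt19, Krt7 and Cftr, the first 2 also being expressed by mesothelial cells) with 10.2 to 59.8, 1146 to 3052 and 682 to 1093. Neutrophil markers (led by Ngp, S100a8 and S100a9) summed to between 636 and 6660 in NASH-fib, although the gate took CD45- cells, against 14.3 to 144 in CCl4-fib and 58.4, 1124 and 99.2 in HSC replicates 1, 2 and 3.

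**Figure D1:**
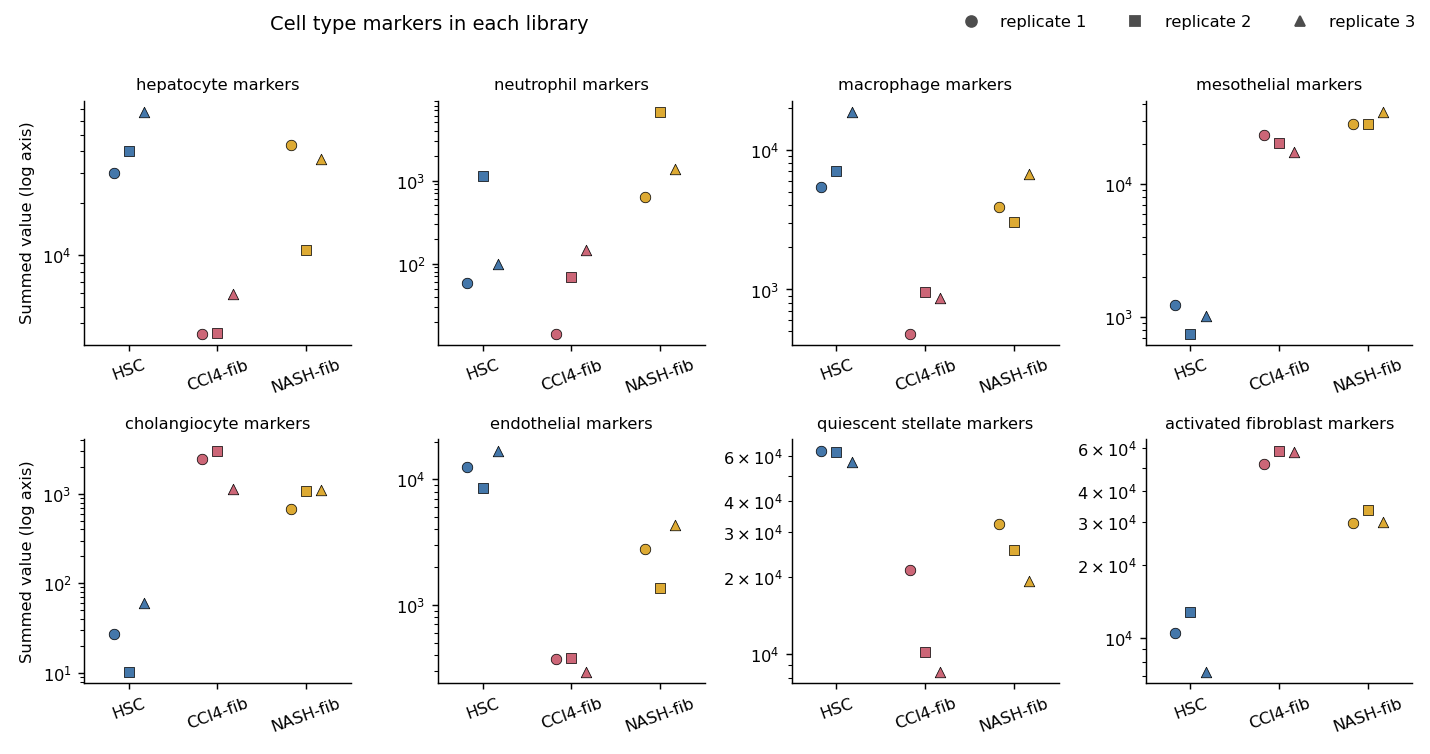
Summed normalised value of each list of cell type markers (log axis) in every library of HSCs, CCl4-fib and NASH-fib, with the shape of a point giving the replicate number. Hepatocyte markers were lowest in CCl4-fib (3488 to 5925), mesothelial markers were lowest in HSCs (751 to 1239), and HSC replicate 2 stood above the other HSC libraries in neutrophil markers (1124).

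Against HSCs, CCl4-fib had higher levels of Saa3 and Lcn2 and lower levels of Saa4, Hpx and Apcs. Genes that changed by 1 or more on the log2 scale with an adjusted p below 0.05 were called (limma on log2(value + 1), p adjusted by Benjamini-Hochberg across 13651 genes). By this rule 2 of the 10 members were higher and 3 lower in CCl4-fib, where 16.2% of all tested genes were called higher and 11.7% lower. The libraries of these groups did not overlap for 5 members, against 48.6% of all tested genes. The members had a median log2 fold change of -1.50, and all tested genes one of 0.18. In NASH-fib against CCl4-fib, Saa4 and Orm1 were called higher and Saa3 lower, with backgrounds of 4.97% called higher and 5.66% called lower, and the libraries of 6 members did not overlap, against 39.1% of all genes. The medians were 3.02 for the members and -0.11 for all tested genes. In NASH-fib against HSCs, 0 members were called with limma, where 8.23% of all tested genes were called higher and 4.3% lower. At an unadjusted p under 0.05 there was 1, Lcn2, which edgeR's quasi-likelihood test also called, and DESeq2 called Lcn2 and Saa3. The libraries of these groups overlapped for all 10 members, while they did not overlap for 24.4% of all genes. The 3 comparisons share their libraries, so their counts are not independent of each other.

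**Figure D2:**
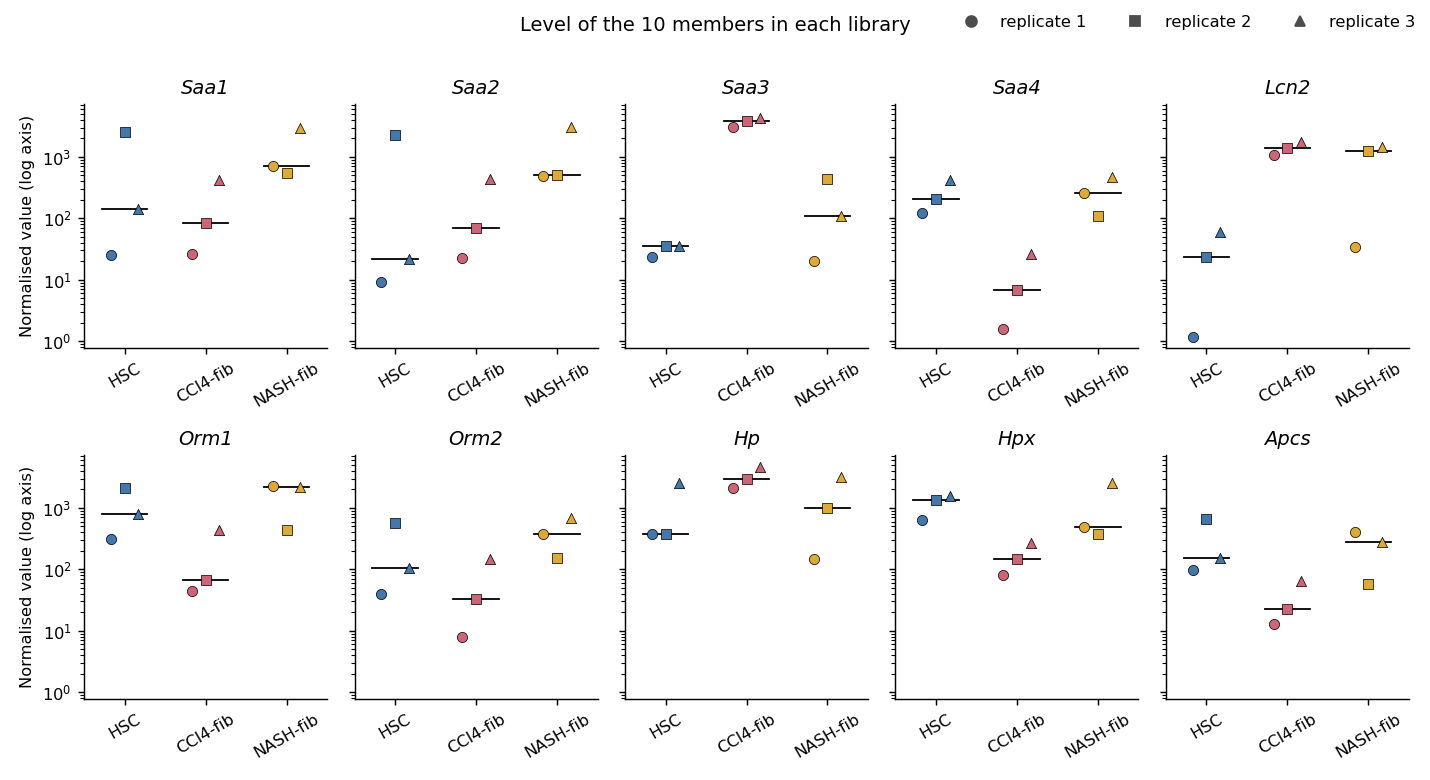
Normalised value (log axis) of each member in every library, with the group on the horizontal axis, the replicate number as the shape of the point and the group median as a line. Saa3 lay between 3053 and 4256 in CCl4-fib and at 444 or below in all other libraries, Saa4 was at 26.7 or below in CCl4-fib, and Lcn2 in NASH-fib replicate 1 (33.98) lay with the HSC libraries.

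Saa3, the serum amyloid A made mainly outside hepatocytes, set CCl4-fib apart from both other groups. In the order of replicates 1, 2 and 3, HSCs had values of 23.4, 35.0 and 35.9, CCl4-fib values of 3053, 3797 and 4256 and NASH-fib values of 20.4, 444 and 109. The group means were therefore 31.4 ± 6.96 (SD, n = 3), 3702 ± 607 (SD, n = 3) and 191 ± 224 (SD, n = 3). Every CCl4-fib library lay above all others, whereas NASH-fib replicate 1 lay below all HSC libraries and the other two NASH-fib libraries above them. Saa3 rose in CCl4-fib against HSCs by a log2 fold change of 6.85 ± 0.85 (SE, limma, Benjamini-Hochberg adjusted p = 0.000265), which is 115-fold on the scale of log2(value + 1). It was lower in NASH-fib than in CCl4-fib by a log2 fold change of -5.17 ± 0.85 (SE, adjusted p = 0.01). Both calls were kept in all 18 alternative fits, with log2 fold changes from 6.09 to 6.98 and from -6.24 to -4.05. The second was -4.05 without NASH-fib replicate 1 and -6.24 without NASH-fib replicate 2. Against HSCs, the log2 fold change in NASH-fib was 1.67 ± 0.85 (SE, adjusted p = 0.288), and it was 2.80 and called without NASH-fib replicate 1 (adjusted p = 0.00567). The reads on Saa3 in CCl4-fib came to as many as 8.50 per base of its 525 exonic bases, above the 3 reads per position that the file header gives as the limit of the counting, and the largest value of any gene was 11.3. Saa1 and Saa2 in NASH-fib, with up to 4.97 and 5.18 reads per base, and Hp in CCl4-fib, with up to 3.71, were above it too. Whether that limit held down these levels was not tested.

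Saa1 and Saa2, the hepatic forms, were highest in NASH-fib and in a single HSC library. Saa1 had values of 25.7, 2505 and 140 in HSC replicates 1, 2 and 3, of 26.2, 84.2 and 428 in CCl4-fib and of 725, 550 and 2933 in NASH-fib. Saa2 had values of 9.35, 2273 and 21.5 in HSCs, of 22.2, 68.9 and 444 in CCl4-fib and of 487, 504 and 3075 in NASH-fib. For both genes every NASH-fib library lay above every CCl4-fib library, and HSC replicate 2 lay above all libraries but NASH-fib replicate 3. The difference between NASH-fib and CCl4-fib did not pass the threshold, with log2 fold changes of 3.40 ± 1.48 (SE, adjusted p = 0.159) for Saa1 and 3.35 ± 1.79 (SE, adjusted p = 0.243) for Saa2. Against HSCs the log2 fold changes in NASH-fib were 2.32 ± 1.48 (SE, adjusted p = 0.432) and 3.49 ± 1.79 (SE, adjusted p = 0.297). Without HSC replicate 2 they were 4.10 (adjusted p = 0.0457) and 5.90 (adjusted p = 0.00877), and both genes were called. HSC replicate 2 also had the most neutrophil marker RNA of the HSC libraries, with a sum of 1124 against 58.4 and 99.2, and its hepatocyte sum of 39912 lay between those of the other two. The part of these cells in the values of Saa1 and Saa2 was not tested. In CCl4-fib against HSCs the log2 fold change was -1.08 ± 1.48 (SE, adjusted p = 0.609) for Saa1 and 0.15 ± 1.79 (SE, adjusted p = 0.959) for Saa2, and the direction of the second turned with edgeR (-2.28) and DESeq2 (-2.27). The reads on Saa1 were between 0.95 and 1.49 times those on Saa2 in the 6 fibroblast libraries, and 2.75, 1.10 and 6.50 times in HSC replicates 1, 2 and 3, where replicate 1 had 22 reads on Saa1 and 8 on Saa2.

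Saa4, the constitutive form, was lowest in CCl4-fib. HSCs had values of 120, 204 and 416, CCl4-fib values of 1.59, 6.80 and 26.7 and NASH-fib values of 258, 108 and 472. Every CCl4-fib library lay below every other library, with 2, 8 and 28 reads, while HSC and NASH-fib libraries overlapped throughout. Saa4 fell in CCl4-fib against HSCs by a log2 fold change of -4.73 ± 0.86 (SE, limma, Benjamini-Hochberg adjusted p = 0.00244), called in all 18 alternative fits with log2 fold changes from -5.60 to -3.57. Leaving out CCl4-fib replicate 1 gave -3.89 and leaving out CCl4-fib replicate 3 gave -5.60. It was higher in NASH-fib than in CCl4-fib by 4.85 ± 0.86 (SE, adjusted p = 0.0123), a call lost without CCl4-fib replicate 2 (adjusted p = 0.0506) or NASH-fib replicate 3 (adjusted p = 0.053), and the value was 4.01 when CCl4-fib replicate 1 was left out and 5.72 when CCl4-fib replicate 3 was. Between NASH-fib and HSCs the log2 fold change was 0.12 ± 0.86 (SE, adjusted p = 0.973). Hepatocyte markers moved in the same direction, being between 3488 and 5925 in CCl4-fib against at least 10697 in all other libraries, and their part in the level of Saa4 was not tested. In these bulk libraries, fewer cells of a type and less RNA per cell cannot be told apart.

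Saa3 therefore took different shares of the reads on the 4 serum amyloid A genes. In CCl4-fib it held 98.4% (95% Wilson interval 97.9 to 98.7), 96.0% (95.4 to 96.5) and 82.6% (81.5 to 83.6) in replicates 1, 2 and 3. In NASH-fib it held 1.37% (0.831 to 2.25), 27.7% (25.6 to 29.8) and 1.66% (1.38 to 1.99), and in HSCs 13.1% (8.62 to 19.3), 0.697% (0.469 to 1.03) and 5.85% (4.13 to 8.23). Shares in CCl4-fib lay above all others. These intervals cover counting error only, since reads were amplified and carried no molecular identifiers. The summed value of the 4 genes was between 3103 and 5155 in CCl4-fib, between 1490 and 6589 in NASH-fib and between 179 and 5016 in HSCs, so the sums overlapped where the shares did not.

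**Figure D3:**
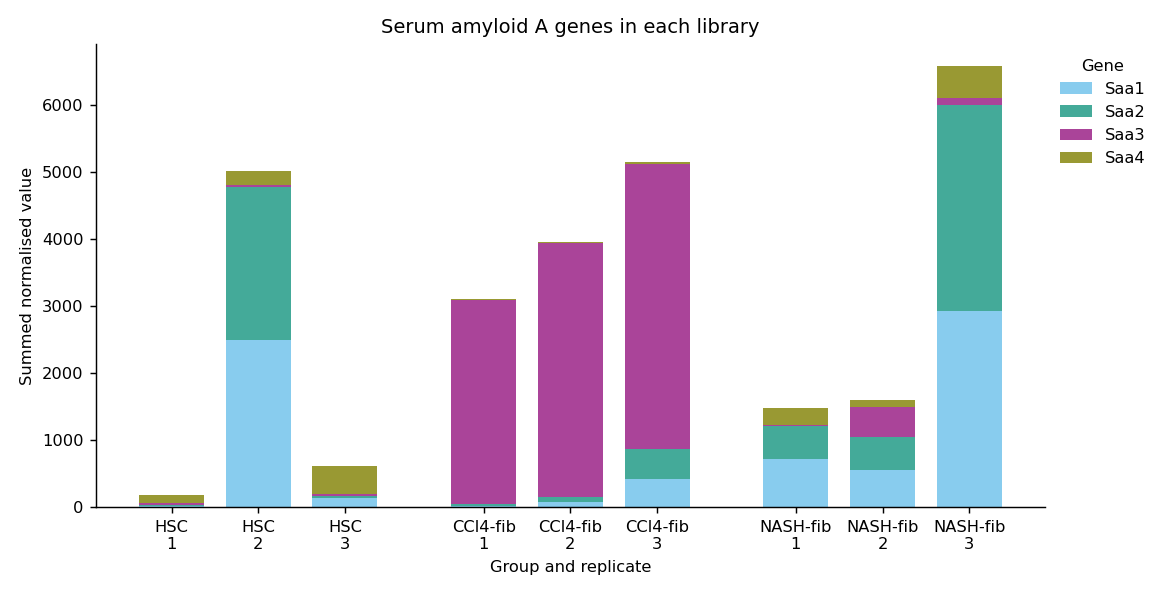
Summed normalised value of Saa1, Saa2, Saa3 and Saa4 in each library, stacked from 0 by gene. The bars of CCl4-fib consist mostly of Saa3 (82.6% to 98.4% of the reads), and those of HSC replicate 2 and NASH-fib replicate 3 mostly of Saa1 and Saa2.

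Lcn2, the siderophore-binding lipocalin, was high in CCl4-fib and in 2 of the 3 NASH-fib libraries. HSCs had values of 1.17, 23.3 and 59.8, CCl4-fib values of 1095, 1380 and 1744 and NASH-fib values of 33.98, 1251 and 1439. The CCl4-fib libraries and NASH-fib replicates 2 and 3 all lay at 1095 or above, and NASH-fib replicate 1 lay within the range of HSCs. Lcn2 rose in CCl4-fib against HSCs by a log2 fold change of 6.55 ± 1.43 (SE, limma, Benjamini-Hochberg adjusted p = 0.00681), called in all 18 alternative fits with log2 fold changes from 4.33 to 7.57. It was 5.17 without HSC replicate 1 and 7.57 without HSC replicate 3. In NASH-fib against HSCs the log2 fold change was 4.75 ± 1.43 (SE, adjusted p = 0.0552), just outside the threshold. It was called in 7 of 18 alternatives, with an adjusted p of 0.00226 without NASH-fib replicate 1, and the adjusted p ran up to 0.497 with the library code as a block, where the log2 fold change was 1.95. Library codes in the labels begin with a prefix that some libraries share, and only 1 prefix was shared by all groups, namely HSC replicate 2, CCl4-fib replicate 1 and NASH-fib replicate 1, with Lcn2 at 23.3, 1095 and 33.98 and Saa3 at 35.0, 3053 and 20.4. HSC replicate 3 and CCl4-fib replicate 2 shared a different prefix, with Lcn2 at 59.8 and 1380 and Saa3 at 35.9 and 3797. CCl4-fib replicate 3 and NASH-fib replicates 2 and 3 shared another, with Lcn2 at 1744, 1251 and 1439 and Saa3 at 4256, 444 and 109. Within prefixes, both genes were thus higher in CCl4-fib than in HSCs each time. The labels do not say what the prefix stands for. Between the fibroblast groups the log2 fold change was -1.80 ± 1.43 (SE, adjusted p = 0.432). Lcn2 is also a granule gene of neutrophils, whose other markers summed to 14.3, 68.0 and 144 in CCl4-fib and to 636, 6660 and 1376 in NASH-fib. Cholangiocyte and mesothelial markers were higher in CCl4-fib than in HSCs, as were Lcn2 and Saa3, with sums of 1146 to 3052 against 10.2 to 59.8 and of 17316 to 23475 against 751 to 1239. In NASH-fib the mesothelial sums were higher than in CCl4-fib (28116 to 34748), while Saa3 was lower in every library (20.4, 444 and 109). Lcn2 in NASH-fib replicate 1 was at 33.98 beside a mesothelial sum of 28479. Cholangiocyte sums in NASH-fib were 682 to 1093, below those in CCl4-fib. The part of these cell types in Lcn2 and Saa3 was not tested.

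The orosomucoid genes were lowest in CCl4-fib. Orm1 had values of 313, 2103 and 783 in HSCs, of 43.6, 67.2 and 446 in CCl4-fib and of 2292, 433 and 2220 in NASH-fib. Orm2 had values of 39.8, 571 and 104 in HSCs, of 7.94, 32.3 and 149 in CCl4-fib and of 379, 151 and 681 in NASH-fib. CCl4-fib replicate 3 was the highest of its group for both and reached into the range of the HSCs. Orm1 was higher in NASH-fib than in CCl4-fib by a log2 fold change of 3.56 ± 0.97 (SE, adjusted p = 0.0429), although NASH-fib replicate 2 (433) lay just below CCl4-fib replicate 3 (446). That call was kept in 10 of 18 alternatives and in 4 of the 9 fits that left out a library, being lost without CCl4-fib replicates 1 or 2, NASH-fib replicates 1 or 3 or HSC replicate 3. Leaving out CCl4-fib replicate 1 gave a log2 fold change of 2.90, leaving out CCl4-fib replicate 3 gave 4.56 and leaving out NASH-fib replicate 2 gave 4.35. In CCl4-fib against HSCs Orm1 had a log2 fold change of -2.86 ± 0.97 (SE, adjusted p = 0.05001), just outside the threshold, and was called in 9 of 18 alternatives. Orm2 was not called, with log2 fold changes of 3.26 ± 1.12 (SE, adjusted p = 0.0879) in NASH-fib against CCl4-fib and of -1.93 ± 1.12 (SE, adjusted p = 0.222) in CCl4-fib against HSCs. In NASH-fib against HSCs the log2 fold changes were 0.70 for Orm1 (adjusted p = 0.789) and 1.34 for Orm2 (adjusted p = 0.584).

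Of the genes whose products bind hemoglobin and heme, Hpx was called and Hp was not. Hp, encoding haptoglobin, had values of 374, 383 and 2521 in HSCs, of 2123, 3019 and 4737 in CCl4-fib and of 148, 998 and 3137 in NASH-fib. HSC replicate 3 and NASH-fib replicate 3 lay within the range of CCl4-fib, and the other libraries of those groups lay below it. Its log2 fold change of 2.13 in CCl4-fib against HSCs ± 1.02 (SE, adjusted p = 0.147) did not pass the threshold, nor did that of -2.01 in NASH-fib against CCl4-fib ± 1.02 (SE, adjusted p = 0.222). Without HSC replicate 3 the first was 3.04 and was called (adjusted p = 0.0461), and it was called without NASH-fib replicate 1 too (adjusted p = 0.0418). Hp differed between NASH-fib and HSCs by 0.12 ± 1.02 (SE, adjusted p = 0.978). Hpx, encoding hemopexin, had values of 631, 1327 and 1596 in HSCs, of 81.8, 149 and 264 in CCl4-fib and of 498, 378 and 2583 in NASH-fib. Every CCl4-fib library lay below every other library. Hpx fell in CCl4-fib against HSCs by a log2 fold change of -2.89 ± 0.71 (SE, adjusted p = 0.0129), a call lost without CCl4-fib replicate 1 (adjusted p = 0.0603). In NASH-fib against CCl4-fib its log2 fold change was 2.40 ± 0.71 (SE, adjusted p = 0.056), outside the threshold although the libraries did not overlap, and it was called in 6 of 18 alternatives. Between NASH-fib and HSCs it was -0.49 ± 0.71 (SE, adjusted p = 0.806).

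Apcs, the mouse serum amyloid P gene, was lower in CCl4-fib than in HSCs. HSCs had values of 99.4, 667 and 153, CCl4-fib values of 12.7, 23.0 and 64.9 and NASH-fib values of 413, 58.8 and 283. CCl4-fib lay below all HSC libraries, and NASH-fib replicate 2 lay within the range of CCl4-fib. Apcs fell in CCl4-fib against HSCs by a log2 fold change of -2.97 ± 0.90 (SE, adjusted p = 0.0325), a call lost without HSC replicate 2 (adjusted p = 0.11), CCl4-fib replicate 1 (adjusted p = 0.123) or CCl4-fib replicate 2 (adjusted p = 0.0961), and kept in 14 of 18 alternatives. It was -2.16 without HSC replicate 2 and -3.59 without CCl4-fib replicate 3. In NASH-fib against CCl4-fib its log2 fold change was 2.78 ± 0.90 (SE, adjusted p = 0.0745), and against HSCs it was -0.18 ± 0.90 (SE, adjusted p = 0.956).

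**Figure D4:**
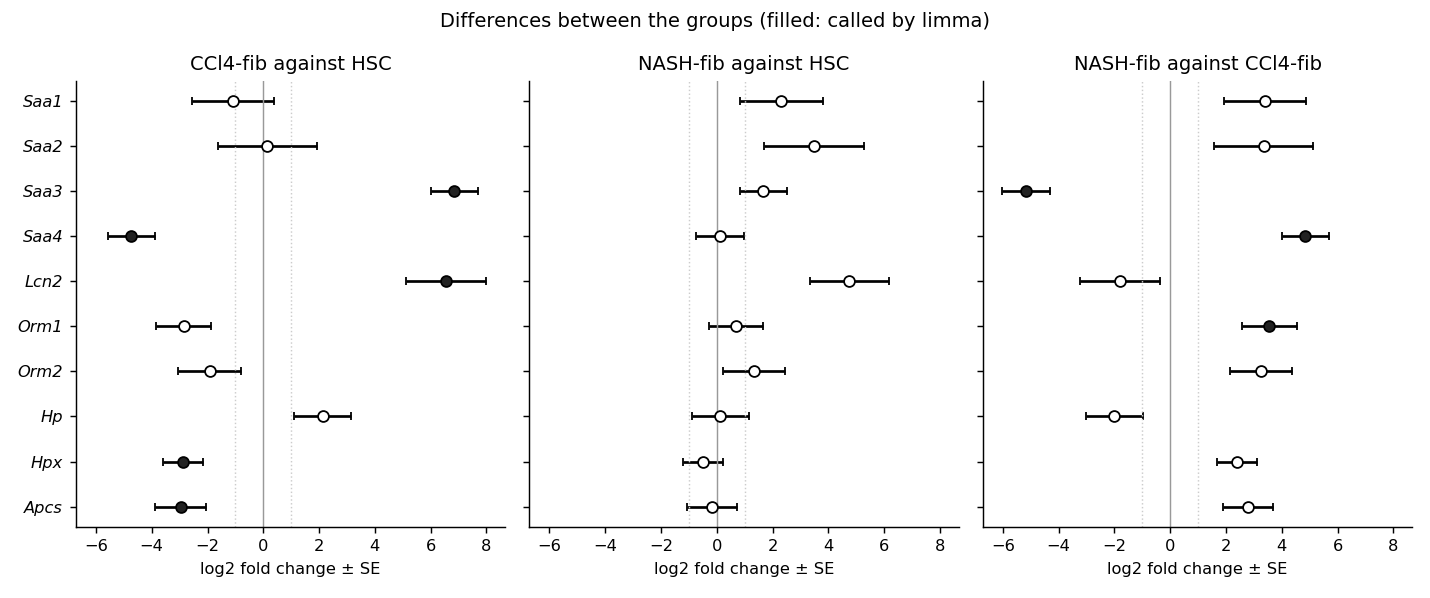
Log2 fold change of each member in the 3 comparisons, with its standard error as a bar (limma on log2(value + 1)). Filled points are called genes and dotted lines mark log2 fold changes of -1 and 1, and Saa3 lies far to the right in CCl4-fib against HSCs (6.85) and far to the left in NASH-fib against CCl4-fib (-5.17), where most other members lie to the right.

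Per kilobase of exon, the order of the members differed between the groups. In CCl4-fib the mean value per kilobase was 7051 ± 1156 (SD, n = 3) for Saa3, 2461 ± 993 for Hp and 1665 ± 385 for Lcn2, and these were followed by Saa1 with 299 ± 362. Saa3 did not overlap with Hp, and Lcn2 did not overlap with Saa1, while Hp and Lcn2 overlapped. From Saa1 down to Saa4, the lowest at 5.77 ± 6.54, each gene overlapped with the next. In NASH-fib the order was led by Saa1 (2334 ± 2210), Saa2 (2244 ± 2466) and Orm1 (2138 ± 1366), and in HSCs by Saa1 (1481 ± 2328), Orm1 (1383 ± 1203) and Saa2 (1272 ± 2158). Saa3 was the eighth of 10 in NASH-fib (364 ± 426) and the ninth in HSCs (59.8 ± 13.3). In these groups every member overlapped with its neighbour in the order.

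Because hepatocyte markers differed between the groups, each member was also set against their sum, without a test. Per 1000 units of hepatocyte marker value, Saa3 stood at 718 to 1082 in CCl4-fib, at 0.53 to 0.88 in HSCs and at 0.47, 41.5 and 3.00 in NASH-fib replicates 1, 2 and 3. Lcn2 stood at 294 to 394 in CCl4-fib, at 0.04 to 0.88 in HSCs and at 0.78, 117 and 39.6 in NASH-fib. Hp stood at 609 to 861 in CCl4-fib, at 9.60 to 37.3 in HSCs and at 3.41, 93.3 and 86.4 in NASH-fib. For these genes the CCl4-fib libraries lay above all others on this scale. The divisor was lowest in CCl4-fib (3488 to 5925, against at least 10697 in all other libraries), so the division itself raises every gene there. How many of all tested genes separate in this way was not counted. Hp did so only after the division, since its undivided values overlapped between the groups. Hpx, Apcs and Saa4 overlapped between CCl4-fib and HSCs, for Saa4 through CCl4-fib replicate 3 alone. Hpx was at 23.4 to 44.6 in CCl4-fib and at 21.2 to 33.2 in HSCs, Apcs at 3.64 to 11.0 and at 2.27 to 16.7, and Saa4 at 0.46, 1.94 and 4.51 in replicates 1, 2 and 3 and at 4.04 to 6.16. NASH-fib lay above CCl4-fib without overlap for Saa4 (5.94 to 13.0) and overlapped with it for Hpx (11.4 to 71.1), Apcs (5.49 to 9.50) and Orm1 (40.5 to 61.1 against 12.5 to 75.2). Overlap between NASH-fib and CCl4-fib was also seen for Saa1 (16.7 to 80.7 against 7.51 to 72.3), Saa2 (11.2 to 84.7 against 6.37 to 74.9) and Orm2 (8.72 to 18.8 against 2.28 to 25.1). HSCs ran from 0.86 to 62.8 for Saa1, from 0.31 to 57.0 for Saa2, from 1.33 to 14.3 for Orm2 and from 10.5 to 52.7 for Orm1. The part of hepatocyte RNA in the levels of the members was not tested. Alb itself, a marker within the sum, ran from 140 to 195 in CCl4-fib, from 173 to 355 in HSCs and from 167 to 343 in NASH-fib.

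**Figure D5:**
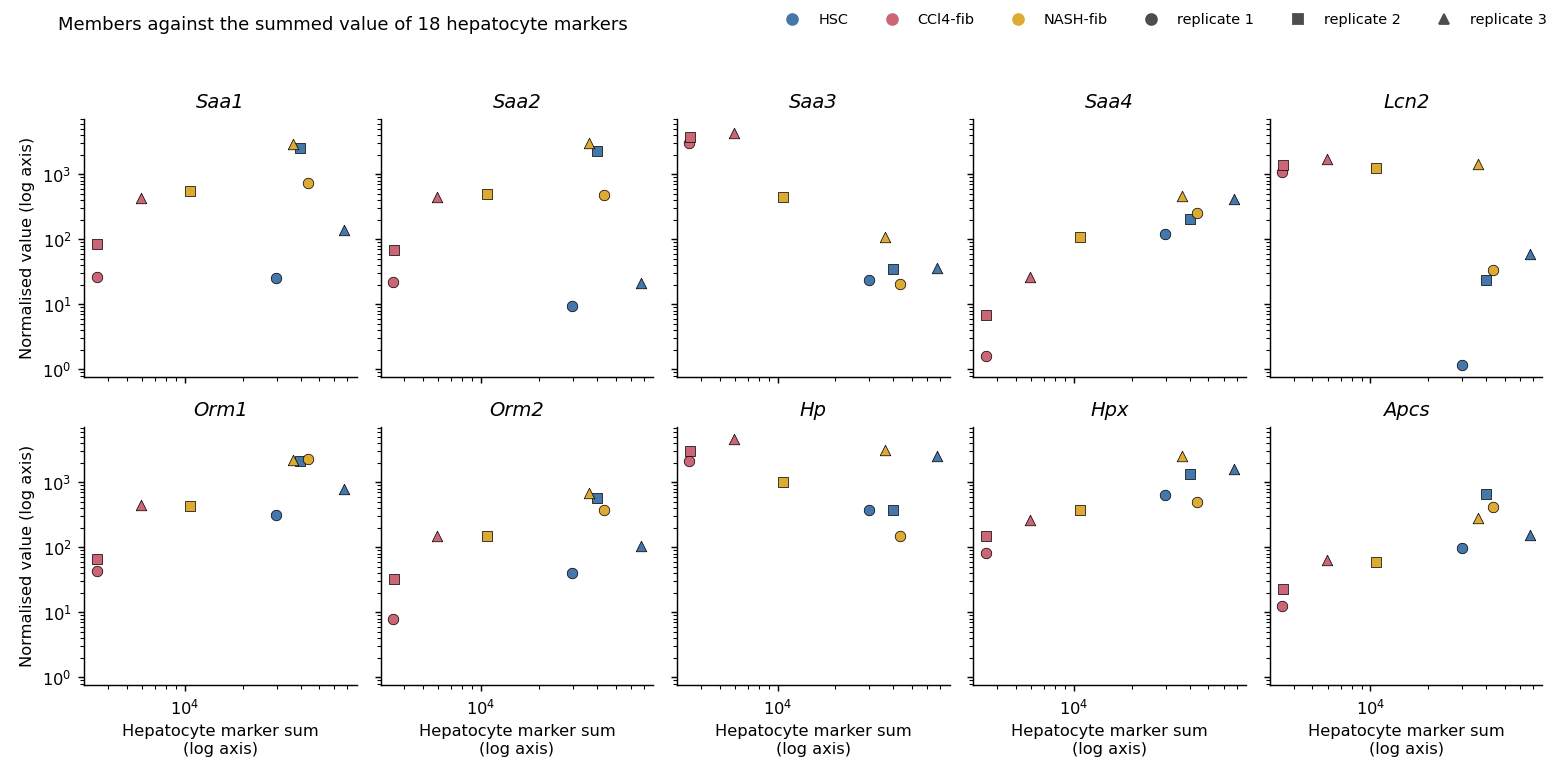
Normalised value of each member (log axis) against the summed value of 18 hepatocyte markers (log axis) in every library, coloured by group. CCl4-fib lies at the left of each panel (3488 to 5925), where Saa3, Lcn2 and Hp are at 1095 or above and Saa4, Hpx and Apcs are lower than in every HSC library.

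The wider acute-phase proteins moved in both directions. Of 30 further acute-phase proteins, all in the file and 29 of them tested (A2m was not), 9 were called higher and 14 lower in CCl4-fib than in HSCs, or 31.0% and 48.3% against the backgrounds of 16.2% and 11.7%. Their median log2 fold change was -2.24. The largest changes were in Serpina3k, a serine protease inhibitor gene (4641 to 8223 in HSCs, 55.3 to 223 in CCl4-fib, log2 fold change -6.00, adjusted p = 0.00119), and Crp, C-reactive protein (168 to 488 and 4.76 to 11.9, log2 fold change -4.83, adjusted p = 0.000971). Ptx3, a pentraxin made outside hepatocytes, had 0 reads in every HSC library and values of 14.3 to 37.3 in CCl4-fib and 7.13 to 25.8 in NASH-fib, and was called higher in both (adjusted p = 0.000752 and 0.00273). Between the fibroblasts, 13 of the list were higher and 3 lower in NASH-fib, or 44.8% and 10.3% against 4.97% and 5.66% of all tested genes, with a median of 1.92, led by Crp (98.0 to 832 in NASH-fib, log2 fold change 5.04, adjusted p = 0.00803), Orm3, another orosomucoid (11.6 to 57.0 in NASH-fib and at most 3 reads in any CCl4-fib library, adjusted p = 0.026), and Serpina3k (221 to 4162 in NASH-fib, log2 fold change 3.85, adjusted p = 0.0314). Compared with HSCs, NASH-fib had 4 higher and 1 lower, with a median of -0.32, and the shares of 13.8% and 3.45% were near the 8.23% and 4.3% of all tested genes. Besides Ptx3 these included Serpina3n, an inducible serine protease inhibitor gene (57.3 to 87.4 in HSCs, 466 to 1456 in NASH-fib, log2 fold change 3.63, adjusted p = 0.000394), and Lbp, the lipopolysaccharide-binding protein (14.6 to 181 in HSCs, 113 to 1048 in NASH-fib, log2 fold change 3.28, adjusted p = 0.0476). In CCl4-fib, Serpina3n (1491 to 2299) and Lbp (599 to 1068) lay above every HSC library as well. Serpina3k shares exons with Serpina3m in the annotation and the Serpina3 genes are close copies, so their counts are uncertain. Hepatocytes are the main source of acute-phase proteins, and hepatocyte markers were also lowest in CCl4-fib. Their sums were 3488 to 5925 there, 29835 to 67556 in HSCs and 10697 to 43493 in NASH-fib. The part of hepatocyte RNA in the calls of this list was not tested. All adjusted p-values are from limma with Benjamini-Hochberg adjustment.

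Among 28 inducers and signalling genes of the response, 25 were tested, and their calls were mixed. In CCl4-fib against HSCs 4 were higher and 8 lower, with a median log2 fold change of -0.21. The share of 16% higher was near the background of 16.2%, and that of 32% lower stood against 11.7%. Il6, the main inducing cytokine, rose in CCl4-fib (1.17 to 14.3 in HSCs, 89.7 to 366 in CCl4-fib, log2 fold change 4.47, adjusted p = 0.00196). Il1a (424 to 859 in HSCs, 0.79 to 21.9 in CCl4-fib, log2 fold change -6.19, adjusted p = 0.00755) and Il1b (80.1 to 275 and 0 to 11.1, log2 fold change -5.26, adjusted p = 0.00132), the interleukin-1 genes, were lower. NASH-fib had 3 higher and 1 lower than HSCs (12% and 4% against 8.23% and 4.3%), with a median of -0.38. Il6 (75.7 to 116 in NASH-fib, log2 fold change 3.65, adjusted p = 0.0103) and Nfkbiz, an inducible co-activator of NF-kappaB target genes (85.3 to 163 in HSCs, 885 to 1056 in NASH-fib, log2 fold change 3.14, adjusted p = 0.000289), were higher. Lifr, the receptor of leukemia inhibitory factor, was lower (6971 to 11918 and 1947 to 2140, log2 fold change -2.08, adjusted p = 0.00203). In CCl4-fib, Nfkbiz (491 to 875) also lay above every HSC library and Lifr (1040 to 1685) below. Set against CCl4-fib, NASH-fib had 3 higher and 2 lower (12% and 8% against 4.97% and 5.66%), with a median of 0.16. These included Il1b (93.5 to 242 in NASH-fib, log2 fold change 5.41, adjusted p = 0.00875) and Il1rn, the interleukin-1 receptor antagonist (58.4 to 195 in NASH-fib, 0 to 7.63 in CCl4-fib, log2 fold change 4.57, adjusted p = 0.0208), as higher and Rela, a subunit of NF-kappaB (252 to 414 in CCl4-fib, 32.6 to 162 in NASH-fib, log2 fold change -2.12, adjusted p = 0.0471), as lower. Exons of Il1a and Il1b overlap antisense genes, and reads of both strands were counted. Macrophage markers, whose cells make interleukin-1, were also lowest in CCl4-fib (482 to 956), and their part was not tested.

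The last list held 14 genes, all of them tested. They were mainly receptors that bind or clear products of the members, with Hmox1 and Slc40a1 for the handling of heme and iron. In CCl4-fib against HSCs 2 were higher and 5 lower, with a median of -0.60, and the share of 14.3% higher was near the background of 16.2%, while that of 35.7% lower stood against 11.7%. Fpr1 and Fpr2, the formyl peptide receptors that bind serum amyloid A, had values of 87.7 to 466 and 30.4 to 105 in HSCs and 1 read in all in CCl4-fib, in a single library each (adjusted p = 0.000107 and 0.000189). Cd163, the macrophage receptor for haptoglobin bound to hemoglobin, had values of 222 to 917 in HSCs, 1.70 to 12.4 in CCl4-fib and 0.89 to 35.4 in NASH-fib, a log2 fold change of -6.21 in CCl4-fib (adjusted p = 0.00174) and of -5.27 in NASH-fib (adjusted p = 0.00733). NASH-fib had 1 higher and 3 lower than HSCs (7.14% and 21.4% against 8.23% and 4.3%), with a median of -0.55. Lrp2, the endocytic receptor megalin that takes up lipocalin 2, was higher (11.6 to 32.7 in HSCs, 517 to 784 in NASH-fib, log2 fold change 5.04, adjusted p = 4.51e-05), and Slc40a1, the iron exporter ferroportin, was lower (2296 to 4240 and 138 to 526, log2 fold change -3.50, adjusted p = 0.00179). In CCl4-fib, Lrp2 (202 to 269) also lay above every HSC library and Slc40a1 (95.4 to 281) below. Relative to CCl4-fib, NASH-fib had 4 higher and 2 lower (28.6% and 14.3% against 4.97% and 5.66%), with a median of 0.03. Fpr1 (17.8 to 108 in NASH-fib, adjusted p = 0.00882) and Fpr2 (14.9 to 33.0, adjusted p = 0.00811) were higher and Ager, the receptor for advanced glycation end products, was lower (28.6 to 64.3 in CCl4-fib, 0 to 5.34 in NASH-fib, log2 fold change -4.52, adjusted p = 0.015). Fpr1, Fpr2 and Cd163 are expressed by myeloid cells, whose markers moved in the same direction between CCl4-fib and HSCs, and exons of Fpr2 are shared with Fpr3. The medians of these 3 lists were the same when genes at 3 reads or fewer in a group were set at their bound.

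Genes with the most similar pattern over the 9 libraries were sought for 4 members, as the smallest root mean square difference of log2(value + 1) after each gene was centred on its mean. For Saa3 these were Prss35, a secreted protease-like gene (0.48), Gpx3, the plasma glutathione peroxidase (0.72), and Mdk, the growth factor midkine (0.74). Prss35 was at 0 in all HSC libraries, at 107 to 175 in CCl4-fib and at 0, 8.91 and 5.90 in NASH-fib. For Lcn2 the nearest genes were less alike, namely Plat, the tissue plasminogen activator (1.16), Cystm1 (1.19) and Mapk13, a p38 kinase (1.23). Plat followed the same split of the NASH-fib libraries, with 310, 1695 and 2836 against 19.9 to 65.8 in HSCs and 2635 to 2977 in CCl4-fib. For Hp they included Tk1, thymidine kinase (0.47), and Acp5, the tartrate-resistant acid phosphatase (0.48). For Saa1 they were Homer2 (0.86), the chemokine receptor Ccr1 (1.02) and 1810064F22Rik (1.09), whose values did not exceed 74.3, 68.0 and 24.8, and Saa2 was at 0.84. Among the members themselves the pairs closest in this measure were Orm1 with Apcs (0.55), Orm1 with Orm2 (0.63) and Saa1 with Saa2 (0.84).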

How the data were processed

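Libraries of SMARTer-amplified RNA (9 in all, 3 per group, single-end) had been aligned by the authors to mm10 using STAR, and HOMER counted the reads over RefSeq exons (both strands, at most 3 reads per position per the file headers, 1 entry per gene). The deposited values are a signal per gene, namely counts that the authors scaled over 10 libraries, 1 of which is not among the columns. The step is labelled DESeq2. The totals ran from 4471988 to 4471995 in the 9 libraries, so the values stand at a common total. Tool versions are not given in the sources used here. All values (100%) were whole multiples of what a read was worth in their library (tolerance 0.1 read). Depth limits low values, 3 reads being worth 2.38 to 4.37.

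Since these are not counts, limma 3.58.1 (R 4.3.3) was fitted to log2(value + 1) of the 13651 genes that passed filterByExpr of edgeR (at least 10 recovered reads as its minimum count), with 1 fit over 3 groups, a trended prior and Benjamini-Hochberg adjustment over all genes. Fold changes on this scale understate those of low genes. At 3 libraries per group, no two-sided exact permutation p can be below 0.1. The fit was tested on simulated data. The sources do not tie replicates to separate batches of animals beyond the pooling, so p-values measure the spread between pools. No library was a copy of another (lowest chi-square per gene 18.6). By this measure NASH-fib replicate 1 was nearer to HSC replicate 2 (64.9) than to NASH-fib replicates 3 (81.8) and 2 (99.6). The measure also grows with depth, and HSC replicate 2 and NASH-fib replicate 1 had the fewest reads. They also shared a prefix of the library code, while NASH-fib replicates 2 and 3 shared another. The reason for this nearness was not tested.

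The members and lists were chosen with earlier results of these data known, and the motifs after the promoters were seen. Named were all members, in each pathway list the 3 called genes with the largest change per comparison, the 3 highest genes of each marker list, and the 3 genes most like Saa1, Saa3, Lcn2 and Hp, of which 1 is not reported here. Alternatives were edgeR 4.0.16, DESeq2 1.42.0, upper-quartile scaling, no filter, pseudocounts of 0.5 and 10, 2 groups per fit, blocks by replicate number or library code, and each library left out. Of the value columns, 0 were left unused.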

Additional observations from a re-analysis of the deposited data

How the results depend on the processing

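Over 18 alternatives for 10 members in 3 comparisons, 465 of 540 log2 fold changes kept their direction and their side of the threshold, 15 were no longer called, 35 became called and 25 turned. The number of members called in CCl4-fib against HSCs was 5, and 3 to 7 with a library left out. In NASH-fib against CCl4-fib it was 3, and 1 to 5 with a library left out, only Saa3 being called without CCl4-fib replicate 2 or NASH-fib replicate 3, and 6 with DESeq2. In NASH-fib against HSCs it was 0, and 0 to 2 with a library left out, 1 with edgeR, upper-quartile scaling, a pseudocount of 10 or the replicate block, and 2 with DESeq2. Every log2 fold change that turned had missed the threshold. With the library code as a block, in which HSC replicate 1, alone with its code, no longer informed the contrast, the log2 fold changes of NASH-fib against HSCs were -0.9999 for Saa1, -0.48 for Saa2, -0.85 for Saa4, -0.92 for Orm1, -0.74 for Orm2 and -1.20 for Hp, and that of Saa2 in CCl4-fib against HSCs was -2.36. The last was -2.28 with edgeR, -2.27 with DESeq2, which gave no adjusted p for it, and -0.0907 with a pseudocount of 10. Hpx in NASH-fib against HSCs was 0.0288 with edgeR and 0.0194 with DESeq2. With a library left out, those that turned ran in NASH-fib against HSCs from -0.38 to 0.68 for Saa4, from -0.89 to 1.31 for Hp, from -1.34 to 0.0417 for Hpx and from -0.74 to 0.66 for Apcs, and in CCl4-fib against HSCs from -2.57 to 0.70 for Saa1 and from -1.34 to 2.55 for Saa2. The cause of these changes was not tested. The labels do not say whether replicate numbers pair the samples. Correlations of same-numbered deviations ran from -0.47 to 0.51. These are deviations from means of 3 libraries, so they cannot settle whether the samples were paired. The replicate block moved the counts of members called from 5 to 5, from 3 to 3 and from 0 to 1, with Apcs (adjusted p = 0.0586) replaced by Hp (0.0415) in the first, Orm1 (0.0593) by Hpx (0.0305) in the second and Lcn2 gained in the third, and those of all genes called from 3801 to 3312, from 1451 to 929 and from 1711 to 1487, the comparisons standing in the order given above. In the same order, edgeR on the recovered reads called 3592, 1365 and 1576 genes, DESeq2 4583, 2679 and 2157, and the library code block 2476, 593 and 668, while leaving out a library gave 2410 to 4719, 211 to 1757 and 1230 to 1947. The median log2 fold change of all genes in NASH-fib against CCl4-fib was -0.11, and 0.14 with edgeR, 0.12 with DESeq2 and 0.01 with upper-quartile scaling.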
